A study of Homo sapiens with 10 samples.

Results

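Box C/D small nucleolar RNAs (snoRNAs) were followed in libraries of RNA crosslinked to FLAG-tagged eIF4A. A member was any gene whose symbol starts with SNORD and whose non-coding RNA (ncRNA) counts summed to at least 10 over the 10 libraries. Of 357 SNORD genes in the files, 157 met this rule, 33 had a sum from 1 to 9 and 167 had no count. At the edge of the rule, SNORD166 with 10 counts, SNORD3C with 13 and SNORD157 with 14 lay inside, and SNORD13D, SNORD49B and SNORD175 with 9 counts each lay outside. The members were thus chosen by their summed counts, and that they have counts is no finding.

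HEK 293T cells, an established human embryonic kidney line, carried FLAG-tagged eIF4A. Cultures received DMSO as the vehicle, silvestrol at 20 nM or CR-1-31-B at 20 nM, in each case for 1 h. They were then irradiated at 254 nm with 400 mJ/cm2 of ultraviolet light, and RNA was recovered with an anti-FLAG antibody by enhanced crosslinking and immunoprecipitation (eCLIP). Each treatment had 3 libraries numbered 1 to 3, and 1 input library with the number 2 was made with no antibody. No treatment or treatment time is given for the input library in the sources used here. Which eIF4A paralog carried the tag, how it was expressed, whether the line was 1 clone, and whether the numbers mark separate cultures are not given in the sources used here. All p-values therefore measure only the spread between these libraries, which may be technical. Silvestrol and CR-1-31-B are rocaglates, small molecules that clamp eIF4A onto RNA.

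Box C/D snoRNAs are short RNAs of the nucleolus that carry a C box near the 5' end and a D box near the 3' end. They assemble with fibrillarin (FBL), NOP56, NOP58 and SNU13, and most guide the 2'-O-methylation of ribosomal RNA, while a few, such as U3 and U14, are needed to cut the ribosomal RNA precursor. Most human box C/D snoRNAs are spliced out of introns of host genes, many of which encode ribosomal proteins or translation factors, and the eIF4A genes themselves host some. eIF4A is a DEAD-box RNA helicase of translation initiation and acts on the 5' leaders of mRNA in the cytoplasm.

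The sequences below belong to the members on which the results turn. They were read by symbol from GENCODE v29 transcripts (GRCh38), since the build of the count files is not given in the sources used here. Capitals mark TGATG, the core of the C box, where it lies within the first 15 bases, and CTGA, the D box, where it lies within the last 15 bases. The first 3 lie in 1 host gene, RABGGTB, and had very different counts in input.
SNORD45A (chr1:75787889-75787972, plus strand): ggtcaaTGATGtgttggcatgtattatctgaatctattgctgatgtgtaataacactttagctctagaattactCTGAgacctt
SNORD45B (chr1:75789477-75789548, plus strand): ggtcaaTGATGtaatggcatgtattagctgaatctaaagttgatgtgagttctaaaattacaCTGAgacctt
SNORD45C (chr1:75787072-75787150, plus strand): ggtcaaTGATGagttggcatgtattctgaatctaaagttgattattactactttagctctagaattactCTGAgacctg
SNORD48 and SNORD31B had no input count, and SNORD27 and SNORD110 were lower in DMSO than in input.
SNORD48 (chr6:31835263-31835326, plus strand): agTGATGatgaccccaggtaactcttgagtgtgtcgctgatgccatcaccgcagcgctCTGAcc
SNORD31B (chr13:107320895-107320963, minus strand): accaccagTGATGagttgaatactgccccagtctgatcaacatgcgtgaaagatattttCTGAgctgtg
SNORD27 (chr11:62855012-62855083, minus strand): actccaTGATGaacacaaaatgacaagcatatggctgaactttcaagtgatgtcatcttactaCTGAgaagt
SNORD110 (chr20:2654212-2654286, plus strand): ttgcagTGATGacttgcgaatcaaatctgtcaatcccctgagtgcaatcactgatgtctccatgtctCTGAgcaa
SNORD10 and SNORD2 lie in genes of eIF4A paralogs.
SNORD10 (chr17:7576811-7576952, plus strand): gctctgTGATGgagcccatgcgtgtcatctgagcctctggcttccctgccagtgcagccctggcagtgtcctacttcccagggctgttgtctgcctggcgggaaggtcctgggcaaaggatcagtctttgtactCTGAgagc
SNORD2 (chr3:186784796-186784864, plus strand): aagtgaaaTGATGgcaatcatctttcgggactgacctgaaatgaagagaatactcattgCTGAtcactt
SNORD93 and SNORD124 had the highest and the lowest fold change with the rocaglates.
SNORD93 (chr7:22856613-22856686, plus strand): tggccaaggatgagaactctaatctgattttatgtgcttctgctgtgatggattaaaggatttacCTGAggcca
SNORD124 (chr17:40027542-40027645, minus strand): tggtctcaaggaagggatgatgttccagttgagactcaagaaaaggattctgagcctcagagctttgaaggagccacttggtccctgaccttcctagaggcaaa

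SNORD45A and SNORD45C differ by 13 edits (substitutions, insertions and deletions), SNORD45A and SNORD45B by 21, and SNORD45B and SNORD45C by 20. Of the 157 members, 118 had a single GENCODE v29 sequence. TGATG stood within the first 15 bases of 94 of these (79.7%), CTGA within the last 15 of 110 (93.2%), and both in 93. Among 149 transcripts of box H/ACA snoRNAs (SNORA), which belong to the other large snoRNA class and guide pseudouridylation, TGATG stood in 2 (1.34%) and CTGA in 5 (3.36%) in the same windows. Only the RNA strand was searched. The letters chosen for the C box leave out its last base, a choice made after the sequences had been read. SNORD93 held only the D box and SNORD124 held neither within these windows. RefSeq lengths of all 157 members ran from 55 to 237 nt with a median of 78 nt.

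The anti-FLAG libraries held 858733 to 1804732 counts each and the input library 2193699. Of all counts, ncRNA took 39.5% in input and 12% to 20.8% in the anti-FLAG libraries. As a check of the cell line, the kidney development genes PAX2, LHX1, EYA1 and HOXA9 held 91 to 634 mRNA counts over all libraries, while ALB (liver), PTPRC (leukocytes), TYR (melanocytes) and MYH6 (heart muscle) held 1 to 5. COL1A1, a fibroblast collagen gene, held 517. In bulk cells, fewer cells and less RNA per cell cannot be told apart.

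Between 146 and 156 of the 157 members had a count in each library. The 10 members with the most counts were SNORD17, SNORD22, SNORD10, SNORD35A, SNORD13, SNORD83B, SNORD84, SNORD26, SNORD32A and SNORD15A. They held 26.3% to 36.5% of the member counts in each library. SNORD17, the longest member at 237 nt, led with 16469 counts. In CPM, the counts of a gene as parts of 1000000 of all counts of its library, SNORD17 stood at 1014 in input, at 827, 1624 and 1102 in DMSO, at 1190, 2768 and 965 in silvestrol and at 1067, 1518 and 1266 in CR-1-31-B. Its lowest and highest values were both in anti-FLAG libraries, and the groups overlapped.

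Several families were missing from the counts. The 48 SNORD115 and 30 SNORD116 genes, tandem copies of the imprinted Prader-Willi region, held 0 counts in all libraries. The 31 SNORD114 genes, from the imprinted cluster next to MEG3, held 12 counts in total, and the 9 SNORD113 genes held 1. SNORD118 (U8), which is needed for processing of the large-subunit ribosomal RNAs, also held 0. With 2193699 counts in input, a count of 0 allows at most 1.37 CPM there (3 counts, counting error only). How reads that match several copies were counted is not given in the sources used here, so values for multicopy families are uncertain. SNORD118 is 1 gene in the files. The annotation and the use of strand are not given either, so its 0 counts need not mean that the RNA was absent.

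As a share of all counts, the members together were of the same size in input and in the anti-FLAG libraries. Members held 1.88% of all input counts (95% exact Clopper-Pearson interval from 1.86% to 1.90%, counting error only). They held 1.56%, 2.61% and 1.69% in DMSO libraries 1 to 3, a mean of 1.95% ± 0.576 (SD, n = 3). The shares were 1.80%, 3.66% and 1.49% in silvestrol (2.32% ± 1.18, SD, n = 3) and 1.70%, 2.14% and 2.84% in CR-1-31-B (2.23% ± 0.577, SD, n = 3). The 3 treatment groups overlapped, and the input share lay inside the range of each. As a share of ncRNA counts, members held 4.75% in input and 11.7%, 15.1% and 9.90% in DMSO libraries 1 to 3. The lowest anti-FLAG value on that scale was 9.47%, in silvestrol library 3, so every anti-FLAG library lay above input. The ncRNA counts of input include 1 gene, the U2 spliceosomal RNA RNU2-1, with 13.4% of all input counts.

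The box H/ACA class differed from this. The 114 SNORA genes with at least 10 counts held 7.38% of input counts but 1.06%, 2.06% and 0.873% of DMSO counts. For each SNORA count there were 0.255 box C/D counts in input and 1.47, 1.27 and 1.93 in DMSO libraries 1 to 3. In silvestrol the ratio was 1.18, 0.945 and 1.72, and in CR-1-31-B it was 1.47, 1.01 and 2.20, so every anti-FLAG library lay above input. The 23 SCARNA genes, RNAs of the Cajal body, held 0.384% of input and 0.374% ± 0.0409 (SD, n = 3) of DMSO counts. Of ncRNA counts they held 0.971% in input and 1.83% to 2.93% in the anti-FLAG libraries. On that scale they lay above input in every anti-FLAG library, as the box C/D members did. Gene by gene, 10 of the 23 (43.5%) were at least 2-fold lower than input in all 3 DMSO libraries and 2 (8.70%) higher. Over all features these shares were 2.91% and 20.9%. The median log2 ratio of DMSO to input over the SCARNA genes was -0.99. All input values rest on 1 input library, and the differences were not tested.

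**Figure D1:**
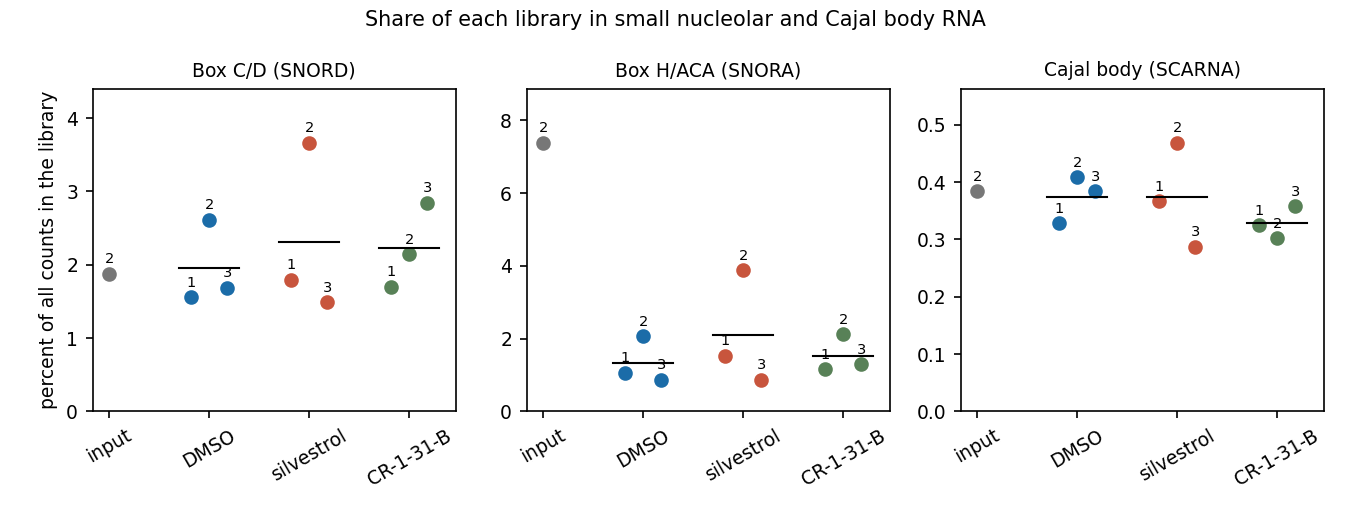
Percent of all counts of each library (y axis, linear) in box C/D, box H/ACA and Cajal body RNA genes, by group (x axis); points are libraries labelled with their number, bars are means of 3. Box C/D shares overlap between all groups, with silvestrol library 2 highest at 3.66%, while the H/ACA share is 7.38% in input and at most 3.88% elsewhere.

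Within each treatment, 1 library had the highest CPM for most members. Over the 135 members with at least 200 counts, DMSO library 2 was the highest of its group for 78.5%, silvestrol library 2 for 94.8% and CR-1-31-B library 3 for 75.6%. Silvestrol library 3 was the lowest of its group for 82.2%. The same libraries numbered 2 were high for SNORA in DMSO and silvestrol (2.06% and 3.88%), and CR-1-31-B library 2 was the highest of its group for SNORA with 2.13%. Every member comparison below carries this spread. Without all 3 libraries numbered 2, an alternative chosen after seeing the data, no member was called, and the tested members' median log2 fold change against DMSO was 0.08 (silvestrol) and 0.52 (CR-1-31-B). Each library was also left out in turn, and the library number was fitted as a block.

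The comparison of DMSO with input asks which members took a larger part of the anti-FLAG libraries than of the input library. It is a description, because there is 1 input library. No library came from cells without the tag, so recovery with the tagged protein cannot be told apart from other recovery. With a pseudocount of 0.5 counts, 26 of 157 members (16.6%) were at least 2-fold higher than input in each of the 3 DMSO libraries, and 4 (2.55%) were at least 2-fold lower. Over all 49224 features (a gene in 1 transcript class) these shares were 20.9% and 2.91%, and over all ncRNA genes 23.1% and 4.69%. These shares rest in part on low counts. The input library is deeper than the DMSO libraries, so the pseudocount alone gives a ratio above 2-fold where all counts are 0, as in 393 of the 10286 features called higher, and 3949 of the 10286 had 0 input counts. Among features with at least 20 input counts, a limit chosen after seeing the data, 12 of 128 members (9.38%) were higher and 4 (3.12%) lower. The shares there were 6.35% and 2.57% over all features, and 2.46% and 9.98% over ncRNA genes. Whether the members' share lay above or below the background thus depended on how low counts were treated. The median log2 ratio of the members was 0.24, against 0.28 over all features and -2.57 over SNORA genes. Of the 114 SNORA genes, 2 were higher and 72 lower. Taken singly, DMSO libraries 1 to 3 gave member medians of 0.12, 0.68 and 0.15. DMSO library 2, the highest, shares its number with the input library, and a pairing of these 2 was not tested. Without DMSO library 2, 23 members (14.6%) instead of 4 were at least 2-fold lower in both of the remaining DMSO libraries. This is a looser limit than all 3 libraries. On it, 7.74% of all ncRNA genes and 74.6% of SNORA genes were lower.

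The ratio depends on the scale. Input holds more ncRNA, and on CPM of ncRNA counts alone the member median was 1.56, with 83 members (52.9%) higher and 1 lower, against 40.4% higher and 1.02% lower over all ncRNA genes and a SNORA median of -1.24. With at least 20 input counts these were 49.2% and 0.781% of 128 members, against 30.5% and 3.99% of 1302 ncRNA genes. The SNORA median lay below the member median in both scalings. DMSO to input ratios of single members and host groups below are on CPM of all counts. A member can lie on the other side of input on CPM of ncRNA counts.

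**Figure D2:**
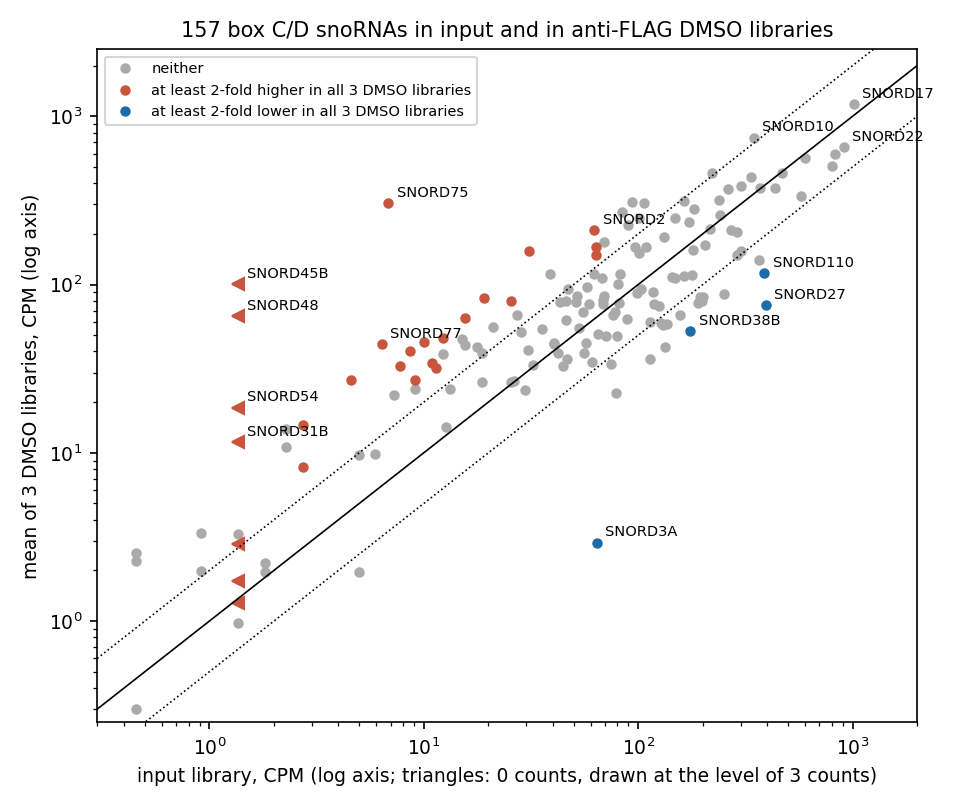
CPM in the input library (x axis) against mean CPM of the 3 DMSO libraries (y axis) for 157 members, both axes logarithmic; the solid line is equality and dotted lines are 2-fold. Most members lie between the dotted lines, SNORD45B, SNORD48, SNORD54, SNORD31B and SNORD75 lie far above them, and SNORD3A lies far below.

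Several of the members furthest above input had no count in it. SNORD45B had 0 input counts and 108, 132 and 75 counts in DMSO libraries 1 to 3, at least 73.9-fold higher than the level of 3 input counts. Its neighbours in RABGGTB were present in input. SNORD45A had 326 input counts and 256, 339 and 178 in DMSO, and SNORD45C had 126 and then 108, 133 and 63. In CPM, SNORD45B and SNORD45C were alike in DMSO (101.1 ± 21.7 and 97.1 ± 28.7, SD, n = 3), so the contrast between these neighbours lay in input. The RABGGTB coding sequence stood at 26.9 CPM in input and at 48.5, 28.8 and 24.4 in DMSO.

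SNORD48, hosted by the non-coding gene SNHG32 and often used as a reference small RNA, had 0 input counts and 35, 110 and 56 DMSO counts, at least 47.4-fold higher. SNORD54, from an intron of RPS20, had 0 and then 13, 32 and 13, at least 13.6-fold higher. SNORD31B had 0 and then 10, 17 and 9, at least 8.46-fold higher. Of the 26 higher members, SNORD157, SNORD13E and SNORD146 also had 0 input counts but at most 7 counts in any DMSO library, so their place rests on the pseudocount. SNORD75, with 15 input counts, is described with its host GAS5.

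GAS5, a non-coding gene whose introns hold many box C/D snoRNAs, hosts 10 members, and these ran apart. SNORD75 had 15 input counts and 250, 470 and 232 in DMSO, a log2 ratio of 5.38 ± 0.50 (SD, n = 3) and a 44.7-fold higher mean CPM. SNORD77 had 14 and then 38, 55 and 44 (log2 ratio 2.75 ± 0.27), and SNORD47 had 140 and then 179, 161 and 171 (1.37 ± 0.14). In contrast, SNORD81 had 440 and then 84, 129 and 50 (-1.33 ± 0.59), and SNORD79 stood at 195 CPM in input and at 58.8, 88.4 and 107 CPM in DMSO (-1.24 ± 0.44). On CPM of all counts, members cut from 1 host transcript thus lay on both sides of input, with a median of 0.24 over the 10. Of the 10, 3 were at least 2-fold higher in all 3 DMSO libraries and 0 lower, against 20.9% and 2.91% of all features. GAS5 itself stood at 62.0 CPM in input and at 74.7, 40.0 and 61.5 in DMSO.

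SNHG1, another non-coding host, had 8 members with a median log2 ratio of -0.97. SNORD27 was the furthest below, with 861 input counts and 41, 154 and 43 in DMSO (log2 ratio -2.63 ± 1.03). SNORD29 had 801 and then 167, 212 and 64 (-1.51 ± 0.80). SNORD28 lay on the other side with 181 and then 137, 118 and 104 (0.49 ± 0.12), which is higher in CPM because the DMSO libraries are smaller. The host SNHG1 stood at 48.8 CPM in input and at 68.1, 50.3 and 40.3 in DMSO.

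Of the other hosts, 37 members in ribosomal protein genes had a median of -0.01 with 5 higher and 1 lower, and 15 in other non-coding hosts had -0.19 with 2 higher and none lower. The 81 members with another host or none assigned had a median of 0.58, with 15 higher and 2 lower. Over all features 20.9% were higher, and nothing is read from these counts. SNORD110, from NOP56, which encodes a core protein of the same particles, had 851 and then 106, 203 and 60 (-1.87 ± 0.79). SNORD87 of SNHG6 and SNORD126 of CCNB1IP1 had mean log2 ratios of -2.04 ± 1.34 and -1.96 ± 0.87, but DMSO library 2 lay within 2-fold of input for both.

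On CPM of all counts, the members listed here under ribosomal RNA processing did not share a direction. SNORD3A, a U3 gene, had 141 input counts and 1, 5 and 3 in DMSO, the lowest log2 ratio of all members (-4.43 ± 0.97). The 5 genes SNORD3A to SNORD3D held 199 counts in total over the 10 libraries, of which 144 were in input. SNORD13 (U13) had 827 CPM in input and 545, 616 and 622 in DMSO, and SNORD22 (U22) had 908 and then 396, 1078 and 495. The 5 SNORD14 (U14) genes held 9368 counts. SNORD14C of HSPA8 stood at 106 CPM in input and at 182, 482 and 248 in DMSO, and SNORD14B of RPS13 was at 119 and then 51.3, 132 and 45.6. The SNORD14 genes are near-identical copies in part, so their separate counts are uncertain.

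The 6 members in translation factor genes had mean log2 ratios from 0.18 to 1.71 on CPM of all counts, with a median of 0.82. The median was 0.24 over all members and 0.28 over all features. Of the 6, only SNORD2 was at least 2-fold higher in all 3 libraries, where 20.9% of all features were. Nothing is read from so few members. SNORD2, in EIF4A2, stood at 62.5 CPM in input and at 169, 288 and 176 in DMSO (1.71 ± 0.43). SNORD10, in EIF4A1, stood at 346 and then 511, 665 and 1060 (1.04 ± 0.53), and every DMSO library lay above input. The wide spread in SNORD10 is that between its DMSO libraries. SNORD37 of EEF2 had 38.7 and then 74.7, 196 and 76.3 (1.42 ± 0.79). SNORD51 of EEF1B2 had 13.2 and then 14, 44.7 and 12.7 (0.61 ± 0.99), SNORD97 of EIF4G2 had 261 and then 307, 413 and 382 (0.48 ± 0.22), and SNORD66 of EIF4G1 had 68.8 and then 88.7, 102.4 and 51.9 (0.18 ± 0.51). The coding sequence of EIF4A2 was at 59.3 CPM in input and at 50.4, 52.1 and 32.9 in DMSO. The snoRNA thus lay above input and the coding sequence of its host below it in every DMSO library. The other parts of the EIF4A2 mRNA differed from this, with the leader at 0.912 CPM in input and at 6.53, 4.65 and 3.18 in DMSO, and the 3′ UTR at 15.95 and then 34.5, 12.1 and 20.1.

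Members above input were most frequent among the shortest, as a description with no test. Of 33 members of 70 nt or less, 13 (39.4%) were higher and 1 lower, with a median of 1.33, against 16.6% higher over all members and 20.9% over all features. With at least 20 input counts, 7 of 25 (28%) were higher, against 9.38% of members and 6.35% of features. Of 56 with 71 to 80 nt, 7 were higher and 2 lower (median 0.03), and of 40 with 81 to 100 nt, 2 were higher and none lower (0.18). Of 28 longer than 100 nt, 4 were higher and 1 lower (0.68). SNORD157, among the 13, rests on the pseudocount. SNORD75 at 60 nt, SNORD54 at 63 nt, SNORD48 at 64 nt and SNORD31B at 69 nt belong to the shortest class. Median GC content was 42.1% over the 18 higher members with a sequence and 43.8% over all 118. Whether the libraries differed in the fragment sizes kept was not tested.

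**Figure D3:**
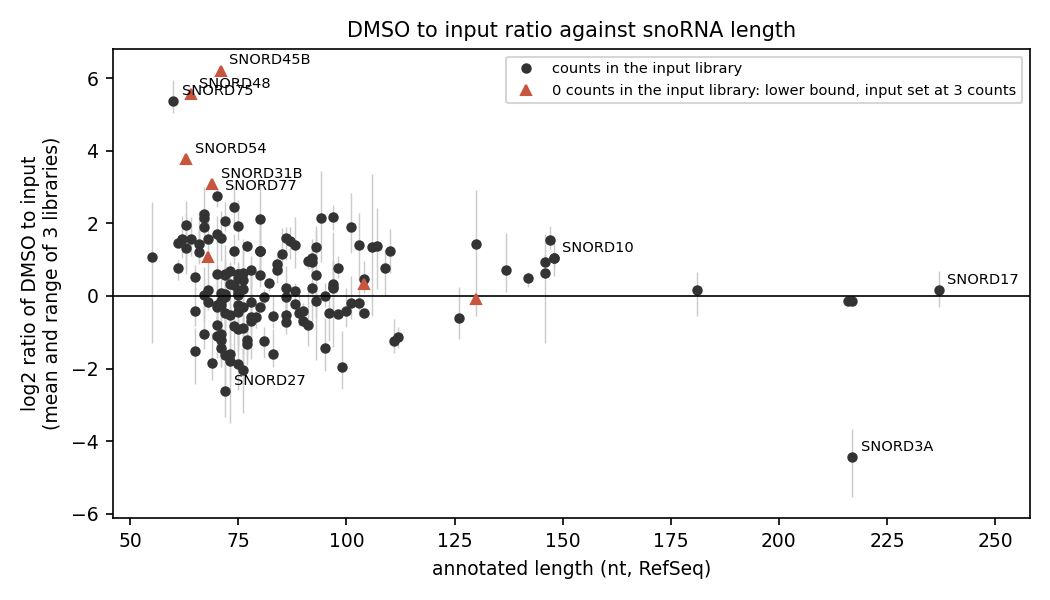
Log2 ratio of DMSO to input (y axis, mean as a point and range of 3 libraries as a line) against RefSeq length in nt (x axis) for 157 members; triangles are members with 0 input counts, drawn at the lower bound set by 3 input counts. The largest ratios belong to members of 60 to 71 nt, and SNORD3A at 217 nt has the lowest.

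The 3 treatments were then compared over the 9 anti-FLAG libraries, which asks whether the rocaglates change the recovery of box C/D snoRNAs with the anti-FLAG antibody. Of the 157 members, 143 passed the filter on low counts. No member was called (edgeR quasi-likelihood test, Benjamini-Hochberg adjusted p under 0.05) when DMSO was compared with silvestrol, with CR-1-31-B or with the mean of both, or when the 2 compounds were compared with each other. Over all 24713 features the called shares were 0.255%, 0.291%, 0.490% and 0% in that order. The smallest adjusted p of a member was 0.601, 0.207, 0.284 and 1.00 by edgeR. At an unadjusted p under 0.05 there were 3, 5, 4 and 0 members, and over all features 8.09%, 8.86%, 10.0% and 2.46% reached this level. DESeq2 and limma voom also called 0 members. With the library number as a block, edgeR called 0 members, with a smallest adjusted p of 0.0710. The block called 316, 365, 505 and 1 of the 24713 features. At an unadjusted p under 0.05 it gave 7, 15, 14 and 3 members, against 11.4%, 11.9%, 13.7% and 4.22% of all features.

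The fold changes of members centred a little above 0 for both compounds, within the spread of single libraries. The median log2 fold change was 0.26 for silvestrol, with 105 of 143 above 0, and 0.11 for CR-1-31-B, with 91 above 0. Over all features the medians were -0.04 and -0.03. These comparisons share the DMSO libraries. Silvestrol library 2 set the direction of the first, since the median was -0.33 without it, and CR-1-31-B library 3 that of the second, with -0.08 without it. Without DMSO library 2 the medians were 0.60 and 0.54. SNORA genes, which were high in the same silvestrol library, had medians of 0.72 and 0.18, and other ncRNA genes had -0.06 and -0.16.

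**Figure D4:**
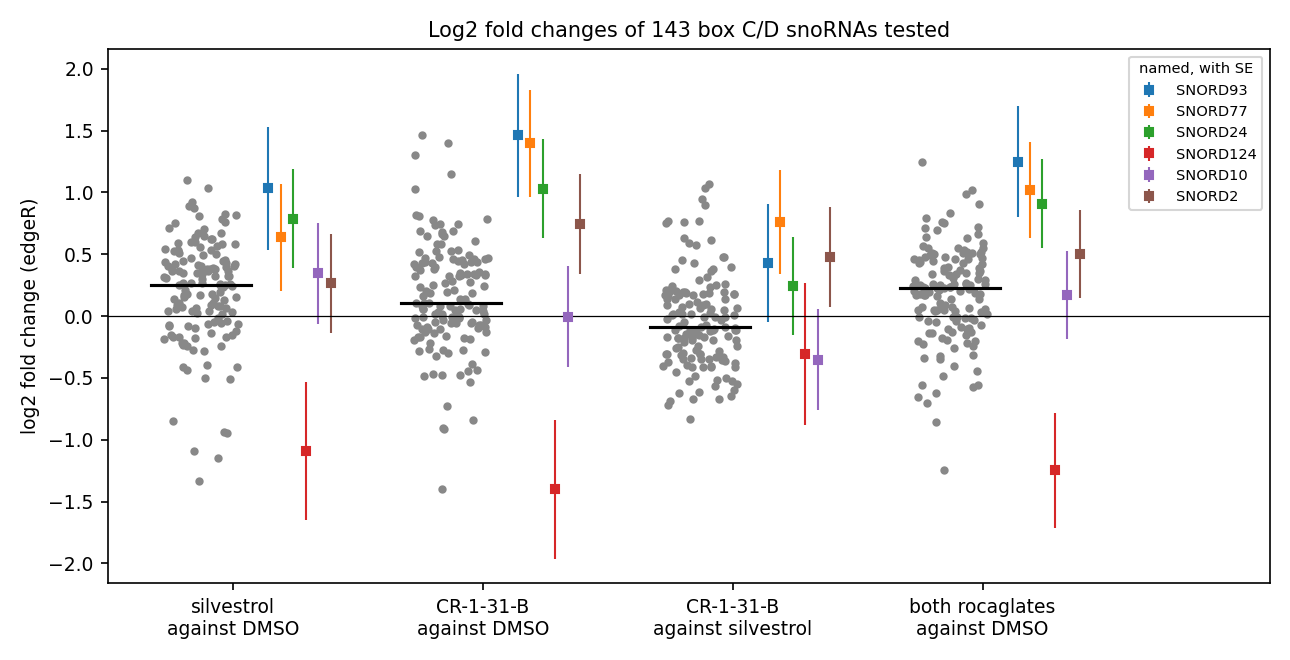
Log2 fold changes by edgeR (y axis) of 143 members in 4 comparisons (x axis); grey points are members, bars are medians, and squares with error bars are 6 named members with the standard error. Medians lie between -0.09 and 0.26, and no member is called.

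The members with the highest fold changes for both rocaglates were SNORD93, SNORD77, SNORD72, SNORD24 and SNORD59A. They were chosen for this size, and none passed the test. SNORD93, from the non-coding gene SNHG26, stood at 16.8, 26.1 and 38.2 CPM in DMSO, at 39.3, 82.7 and 40.8 in silvestrol and at 27.9, 78.2 and 122 in CR-1-31-B. All silvestrol libraries lay above DMSO, and CR-1-31-B library 1 lay within the DMSO range. Its log2 fold change for both rocaglates was 1.25 (SE 0.45, edgeR adjusted p = 0.284).

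SNORD77 of GAS5 was the 1 member with every rocaglate library above every DMSO library. It stood at 35.5, 51.2 and 46.6 CPM in DMSO, at 57.1, 83.7 and 64 in silvestrol and at 55.9, 91.5 and 214 in CR-1-31-B (log2 fold change 1.02, SE 0.39, edgeR adjusted p = 0.327). Over all features 3.51% were above in this way. SNORD24 of RPL7A, a guide that lies in a ribosomal protein gene, stood at 130, 208 and 166 in DMSO, at 227, 430 and 199 in silvestrol and at 209, 298 and 548 in CR-1-31-B, with DMSO library 2 above silvestrol library 3. Its log2 fold change was 0.91 (SE 0.36, edgeR adjusted p = 0.351). SNORD72 of RPL37 and SNORD59A had 0.99 (SE 0.53) and 0.83 (SE 0.53), and their groups overlapped.

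SNORD124, from MED24, was the member furthest down and the 1 with every rocaglate library below every DMSO library, where 2.40% of all features were. It stood at 36.4, 19.5 and 23.3 CPM in DMSO, at 12.7, 14.9 and 8.15 in silvestrol and at 12.4, 8.6 and 8.74 in CR-1-31-B. These are 7 to 39 counts per library. The log2 fold change was -1.25 (SE 0.46, edgeR adjusted p = 0.310). The next were SNORD31B at -0.86 (SE 0.79), SNORD11 of NOP58 at -0.70 (SE 0.40), SNORD9 of CHD8 at -0.65 (SE 0.52) and SNORD136 of GNL3 at -0.62 (SE 0.45). SNORD31B had 0 counts in silvestrol library 2 and 15 in library 1.

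For silvestrol alone, 5 of 143 members lay above and 5 below all DMSO libraries on TMM-scaled CPM, 3.50% each, against 7.87% and 7.15% of all features. Those above were SNORD13, SNORD77, SNORD93, SNORD135 and SNORD144, and those below were SNORD31B, SNORD46, SNORD121A, SNORD124 and SNORD136. For CR-1-31-B, 3 lay above (SNORD1C, SNORD77 and SNORD105B) and 4 below (SNORD11, SNORD54, SNORD117 and SNORD124), against 8.09% and 6.57% of all features. The CR-1-31-B shares were 2.10% and 2.80%, so all of these shares were below the background.

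**Figure D5:**
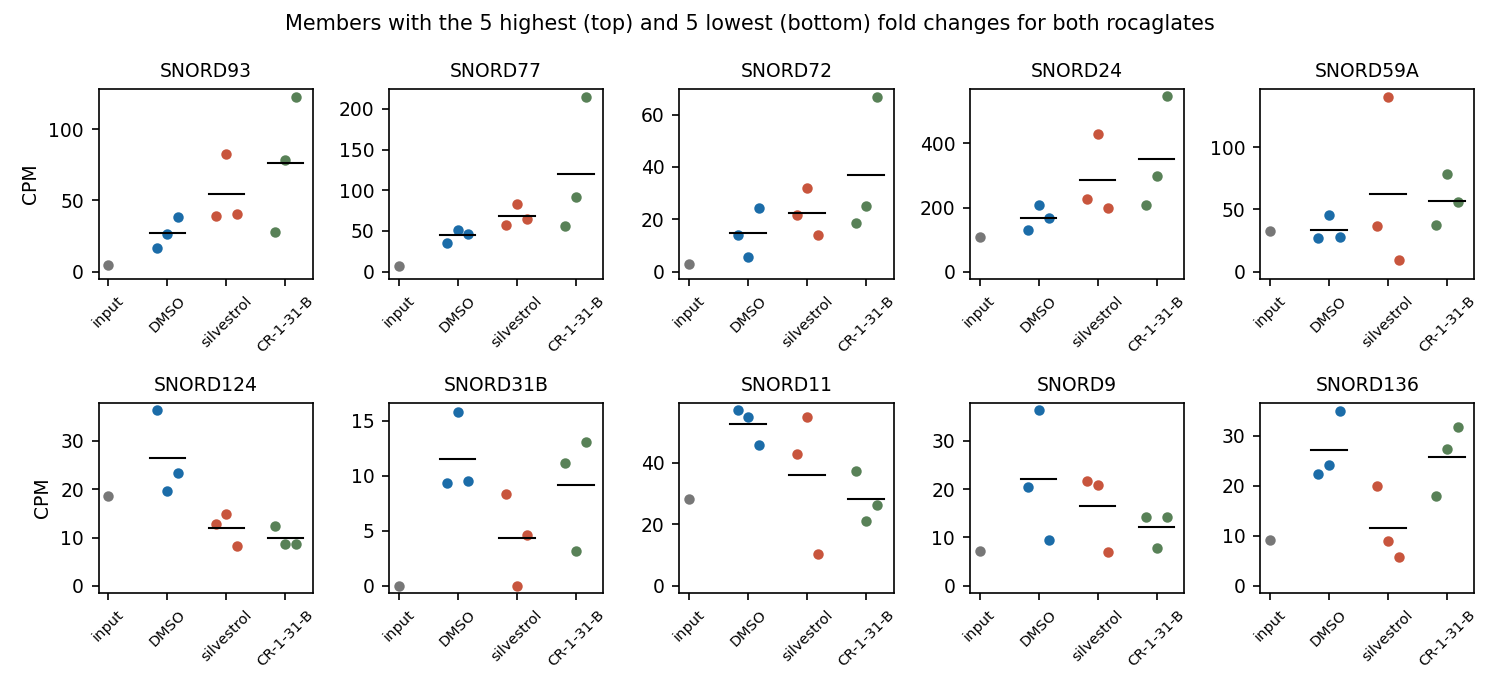
CPM of 10 members (y axes, linear, 1 panel each) in input, DMSO, silvestrol and CR-1-31-B libraries (x axis); points are libraries and bars are means of 3. SNORD77 and SNORD124 are the members whose rocaglate libraries all lie on 1 side of DMSO.

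The members with the most counts and those of translation factor genes were also without a call. SNORD10 stood at 567, 1143 and 1081 CPM in silvestrol and at 532, 459 and 1280 in CR-1-31-B, spreads at least as wide as that of DMSO, and its log2 fold change for both was 0.17 (SE 0.35, edgeR adjusted p = 0.923). SNORD2 stood at 186, 397 and 167 in silvestrol and at 248, 302 and 536 in CR-1-31-B (0.50, SE 0.35, edgeR adjusted p = 0.703). SNORD66 had 0.69 (SE 0.38), SNORD51 0.47 (SE 0.45), SNORD37 0.23 (SE 0.44) and SNORD97 -0.04 (SE 0.29). SNORD17 had 0.29 (SE 0.35) and SNORD22 0.07 (SE 0.34). SNORD13 stood at 658, 656 and 668 in silvestrol and at 540, 328 and 582 in CR-1-31-B, with -0.07 (SE 0.28). The SNORD14 genes ran from 0.24 (SNORD14A, SE 0.35) to 0.76 (SNORD14D, SE 0.81), and SNORD14D had 0 to 41 counts per library. SNORD3A, with 1 to 10 counts in every anti-FLAG library, did not pass the filter on low counts.

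The 2 compounds were compared at the same dose and time, 1 pair over 143 members. The median log2 difference of CR-1-31-B from silvestrol was -0.09, with 62 of 143 above 0, and it turned to 0.10 with scaling factors from ncRNA, to 0.06 with the replicate block, to 0.05 with limma voom, to 0.10 without CR-1-31-B library 1 and to 0.51 without silvestrol library 2. The members ran from -0.83 (SNORD18A) to 1.07 (SNORD138). The 95% interval, not adjusted for the 24713 features tested, included 0 for all 143, with a median half-width of 0.92 on the log2 scale. A typical member would need a difference of nearly 2-fold for this interval to exclude 0. To be called after adjustment it would need a larger one. SNORD136 came nearest to excluding 0, with 19.9, 8.96 and 5.82 CPM in silvestrol and 18, 27.4 and 31.7 in CR-1-31-B. Its difference was 1.04 (95% interval from -0.07 to 2.15), and the adjusted p of all members was 1.00 by edgeR.

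The mRNAs of the proteins that build box C/D particles were looked at as a fixed list of 17 genes, with FBL, NOP56, NOP58 and SNU13 as the core, RRP9 of the U3 particle, and assembly factors such as RUVBL1 and NUFIP1. None of the 17 coding sequences, 12 leaders and 8 3'UTRs tested was called in any comparison (edgeR adjusted p). Calls in these classes were most frequent for both rocaglates. There, 99 of 7122 leaders, 19 of 8413 coding sequences and 1 of 6712 3'UTRs were called. Nothing is read from the lack of calls in so short a list. For silvestrol, the median log2 fold change was 0.23 in leaders, -0.24 in coding sequences and -0.33 in 3'UTRs, against 0.40, -0.12 and -0.26 over all features of these classes. For CR-1-31-B the leaders had 0.27 and the coding sequences 0.18, against 0.35 and -0.03.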

How the data were processed

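The deposited values are read counts per gene symbol in 7 transcript classes, 1 file per library. The submitters' processing notes name cutadapt and Bowtie 1.1 as tools. Genome build, annotation, use of strand, handling of PCR duplicates and the rule for reads matching several places are not given in the sources used here. SNORD genes held counts only in the ncRNA class. Members and gene lists were chosen with earlier results of these data known. Named members were those called in any comparison, the 10 with the most counts, the 5 highest and 5 lowest for DMSO against input and for both rocaglates, and fixed lists of ribosomal RNA processing and translation factor members.

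The 9 anti-FLAG libraries were fitted together in edgeR 4.0.16 (R 4.3.3): filterByExpr, TMM factors, quasi-likelihood tests and Benjamini-Hochberg adjustment over 24713 features, with no block. The step was tested on simulated counts with 1 fixed spread, in which libraries of a group differed only in depth. That test therefore does not cover the shifts between libraries seen here. DESeq2 1.42.0 and limma 3.58.1 (voom) were alternatives, beside other scalings, no filter, a replicate block and leaving out each library. Libraries with the same number deviated together from their group means (9 pairs, r from 0.102 to 0.263, other pairs from -0.203 to 0.0163). This pairing was read from the data and not from the labels. The main fit and its standard errors and intervals leave it out, and only the alternative with the replicate block uses it. No libraries of a group were duplicates (chi-square over df between 3.97 and 9.07). CPM are on all counts of a library. DMSO to input ratios used a pseudocount of 0.5 counts, and a count of 0 was read as up to 3 counts. Sequences were taken by symbol from GENCODE v29 (118 of 157 matched 1 transcript) and lengths from RefSeq (GRCh38.p14). Some items are not reported here.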

Additional observations from a re-analysis of the deposited data

How the results depend on the processing

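No member was called under any of the 20 fits, and the smallest adjusted p was 0.0710 (edgeR, replicate block, both rocaglates). The block with the library number changed no call of a member. Over all features it raised the calls from 63 to 316 for silvestrol, from 72 to 365 for CR-1-31-B and from 121 to 505 for both. Mean differences in the summed member share between libraries of the same number were 0.362 percentage points for silvestrol minus DMSO (0.239, 1.05 and -0.203 for numbers 1 to 3) and 0.275 for CR-1-31-B minus DMSO (0.142, -0.473 and 1.16). Leaving out 1 library at a time gave median member log2 fold changes from -0.33 to 0.60 for silvestrol, from -0.08 to 0.54 for CR-1-31-B, from -0.35 to 0.51 for CR-1-31-B against silvestrol and from -0.09 to 0.55 for both rocaglates. Leaving out the libraries numbered 2, an alternative chosen after seeing the data, gave 0.08 for silvestrol, 0.52 for CR-1-31-B (127 of 143 members above 0), 0.30 for both rocaglates and 0.51 for CR-1-31-B against silvestrol. As percent of ncRNA counts, the share differences were 1.55, 2.79 and 1.24 percentage points for silvestrol minus DMSO, CR-1-31-B minus DMSO and CR-1-31-B minus silvestrol; the last was -0.0871 on all counts and so changed sign. For DMSO against input, CPM on ncRNA counts moved the median to 1.56 and the counts of higher and lower members to 83 and 1, and a minimum of 20 input counts left 12 higher and 4 lower. Leaving out 1 DMSO library gave a median from 0.04 to 0.40, with 30 to 37 higher members and 5 to 23 lower ones. The 23 were found without DMSO library 2. As shares, 19.1% to 23.6% of members were higher and 3.18% to 14.6% lower. Over all ncRNA genes these were 26.1% to 30.6% and 7.74% to 10.6%. Of 1679 alternative fold changes of 30 named members 115 changed sign, and none was called. The cause of these shifts was not tested. Depth limits members such as SNORD124, SNORD31B and SNORD3A, with 0 to 39 counts in an anti-FLAG library.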

Other observations

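Among the members outside the named lists, SNORD42B, from RPL23A, had 68 input counts and was 5.13-fold higher in mean DMSO CPM. SNORD98, with 22 input counts, was 4.53-fold higher, and SNORD57, with 42, was 4.34-fold higher. These members were chosen after their values were seen.

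In input, the single ncRNA gene RNU2-1, the U2 spliceosomal RNA, held 13.4% of all counts, and RMRP, the RNA of the RNase MRP enzyme, held 2.28%, more than the 157 box C/D members together (1.88%).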
